A study of Mus musculus with 64 samples.

Results

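The WAVE regulatory complex and its activator Rac1 were followed at the RNA level in 2 brain regions, frontal cortex and hippocampus, of mice with a point mutation in the complex subunit gene Cyfip2. The members were 10 genes, chosen by matching Ensembl gene IDs to symbols in the mouse annotation: Rac1, Cyfip1, Cyfip2, Nckap1, Wasf1, Wasf2, Wasf3, Abi1, Abi2 and Brk1. All 10 were found among the 18432 genes measured, and all 10 passed the filter on low values in every comparison. The knock-in (KI) mice are Cyfip2+/R87C, with arginine 87 changed to cysteine (R87C) in 1 copy of the gene throughout the body and from conception, and the controls are their wild-type (WT) littermates. Mice were taken at postnatal week (PWK) 1, 7, 14 or 28, and both regions were dissected from both hemispheres of each mouse, so cortex and hippocampus share animals. This gave 16 groups of genotype, age and region with 4 libraries each, 1 per mouse, and 64 libraries in all. Both genotypes were on the C57BL/6N background. The study describes spasms in newborn KI mice, a seizure-free juvenile period and recurrent seizures from PWK 14 on. The PWK 28 libraries come from mice that were alive at that age.

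The WAVE regulatory complex is a protein assembly of a CYFIP, a NCKAP, an ABI and a WAVE subunit with the small protein BRK1. It holds the WAVE subunit inactive until Rac1 loaded with GTP binds the CYFIP subunit, after which the freed end of WAVE calls on the Arp2/3 complex to start branched actin filaments. In neurons this pathway shapes growth cones, dendritic spines and synapses, and CYFIP proteins also bind the translation factor eIF4E and the RNA-binding protein FMRP.

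The edited residue lies in a stretch that the CYFIP paralogs share almost letter for letter. The reference sequences are shown around the codon edited in Cyfip2 and around the matching, unedited codon of Cyfip1. Capitals mark codon 87, and each stretch runs 5′ to 3′ along the coding strand over codons 77 to 97 of the GRCm38 reference annotation.
Cyfip2: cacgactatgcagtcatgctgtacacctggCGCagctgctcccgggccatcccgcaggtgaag
Cyfip1: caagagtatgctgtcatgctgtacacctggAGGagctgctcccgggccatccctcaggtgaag
The Cyfip2 codon lies at chr11:46286091-46286093 on the minus strand and the Cyfip1 codon at chr7:55873497-55873499 on the plus strand, each in coding exon sequence of exon 4 of 31. Of the 63 bases, 57 are the same (90.5%), and 19 of the 21 codons give the same amino acid, codon 87 included. Both reference coding sequences hold 1253 codons before the stop codon. The deposited value of Cyfip2 sums the edited and the unedited copy, which cannot be told apart in a table of gene values.

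The values are normalized counts: the authors' estimated read counts per gene, scaled between libraries. They summed to between 29.2 and 32.6 M per library after that scaling. A gene was called when its Benjamini-Hochberg adjusted p from limma, a linear model fitted across all genes on log2(value + 1), was under 0.05. Means are given ± SD with n = 4 libraries, and differences are on the log2 scale. The p-values cover the spread between these libraries. Markers of neurons, astrocytes, oligodendrocytes, their precursors, microglia, endothelium and choroid plexus were all detected in every group. Choroid plexus markers summed to 245 to 122823 in hippocampus and, outside 1 WT library of cortex at PWK 28 with 21343, to at most 1088 in cortex. KI replicate 1 of hippocampus at PWK 14 stood apart: its astrocyte markers summed to 195819, against 76077, 80829 and 87361 in the other KI libraries and 43236 to 47727 in WT, and its microglial markers to 23250 against at most 11152 in any other library of that age and region. Gfap, among the astrocyte markers, averaged 66134.7 ± 43640.5 in KI and 8637 ± 774 in WT hippocampus at PWK 14. The oligodendrocyte markers of KI replicate 1 summed to 90072, against 134335 to 157161 in the other KI libraries and 126224 to 157342 in WT. For these groups the differences of the members named and the counts of pathway genes are therefore also given without KI replicate 1.

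Per kb of the longest annotated coding transcript, Cyfip2 and Nckap1 headed the members in most groups and Wasf2 and Cyfip1 closed the order in all 16. In WT cortex at PWK 7 the mean level per kb was 5349.5 for Cyfip2 and 3948 for Nckap1, the scaffold that carries the CYFIP subunit. Next came Brk1 with 3407, the neuronal WAVE gene Wasf1 with 2227, Rac1 with 1727, Abi2 with 1229.6, Abi1 with 968 and Wasf3 with 741 normalized counts per kb. Cyfip1 with 402 and Wasf2, the WAVE gene best known from non-neuronal cells, with 151 were the lowest. Nckap1 stood first in all 8 hippocampal groups. At PWK 7, 14 and 28 it reached in WT hippocampus 5395, 5129.7 and 4648 per kb, and Cyfip2 reached 4583, 4851 and 4146. In KI cortex at PWK 28 the order at the top differed, with Brk1 at 4171, Nckap1 at 4006 and Cyfip2 at 3863 per kb. Dividing by the length of all exons in place of the longest transcript kept the last 2 places in all 16 groups and this KI order, while some neighbours in the middle changed places, Abi1, Abi2 and Wasf3 among them. These are levels per kb and were not tested between genes.

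**Figure D1:**
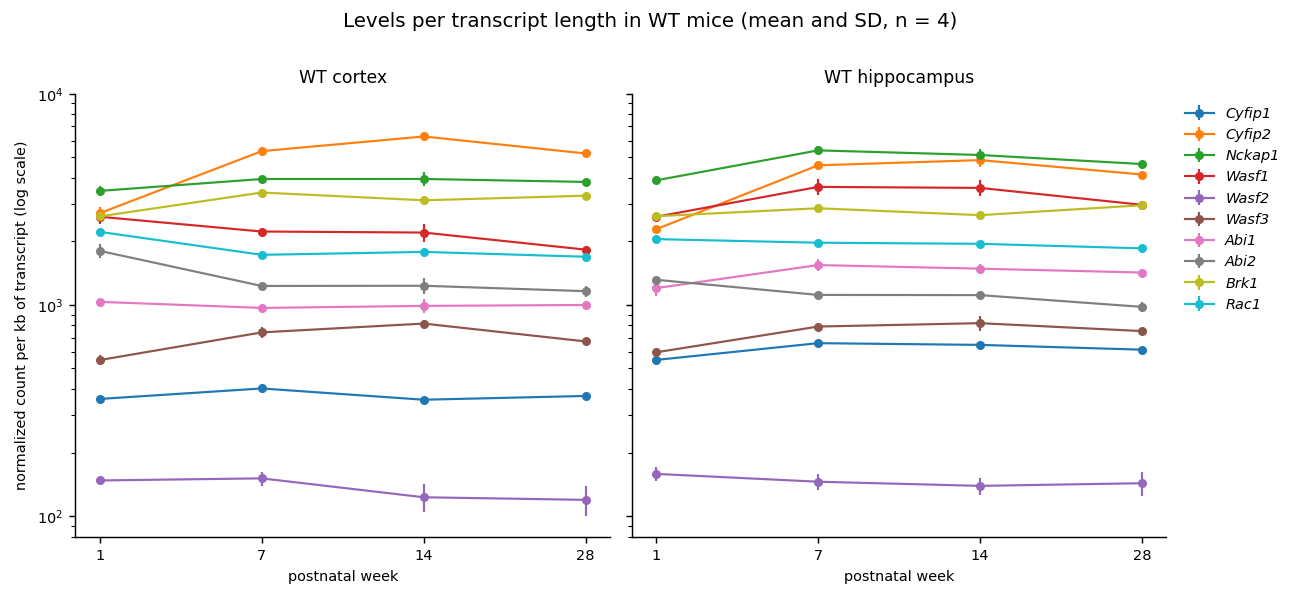
Mean normalized counts per kb of the longest transcript (log axis) of the 10 members in WT mice, by region and age in postnatal weeks, with 4 libraries behind each point. Cyfip2 lies among the upper members and Cyfip1 and Wasf2 lie below all others in each WT group.

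The members differed in how far their group means spread. The highest of the 16 group means was 2.75 times the lowest for Cyfip2, 1.98 times for Wasf1, 1.97 times for Abi2 and 1.85 times for Cyfip1, but 1.35 times for Rac1, the GTPase that switches the complex on. Within groups the median coefficient of variation ran from 2.55% for Rac1 and 3.52% for Brk1 to 8.53% for Wasf2. When the 16 groups were put in order of their mean, most neighbours overlapped in their library values: 15 of 15 neighbouring pairs for Wasf2 and Abi1, 14 for Cyfip1, Nckap1, Wasf3, Abi2 and Rac1, 13 for Wasf1 and Brk1 and 12 for Cyfip2. The single gap in the Cyfip1 order fell between the regions, since all 8 hippocampal groups lay above all 8 cortical ones. For Brk1, KI cortex at PWK 28 was the highest group, with no overlap with the next, and for Cyfip2 the 4 groups of PWK 1 were the lowest.

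**Figure D2:**
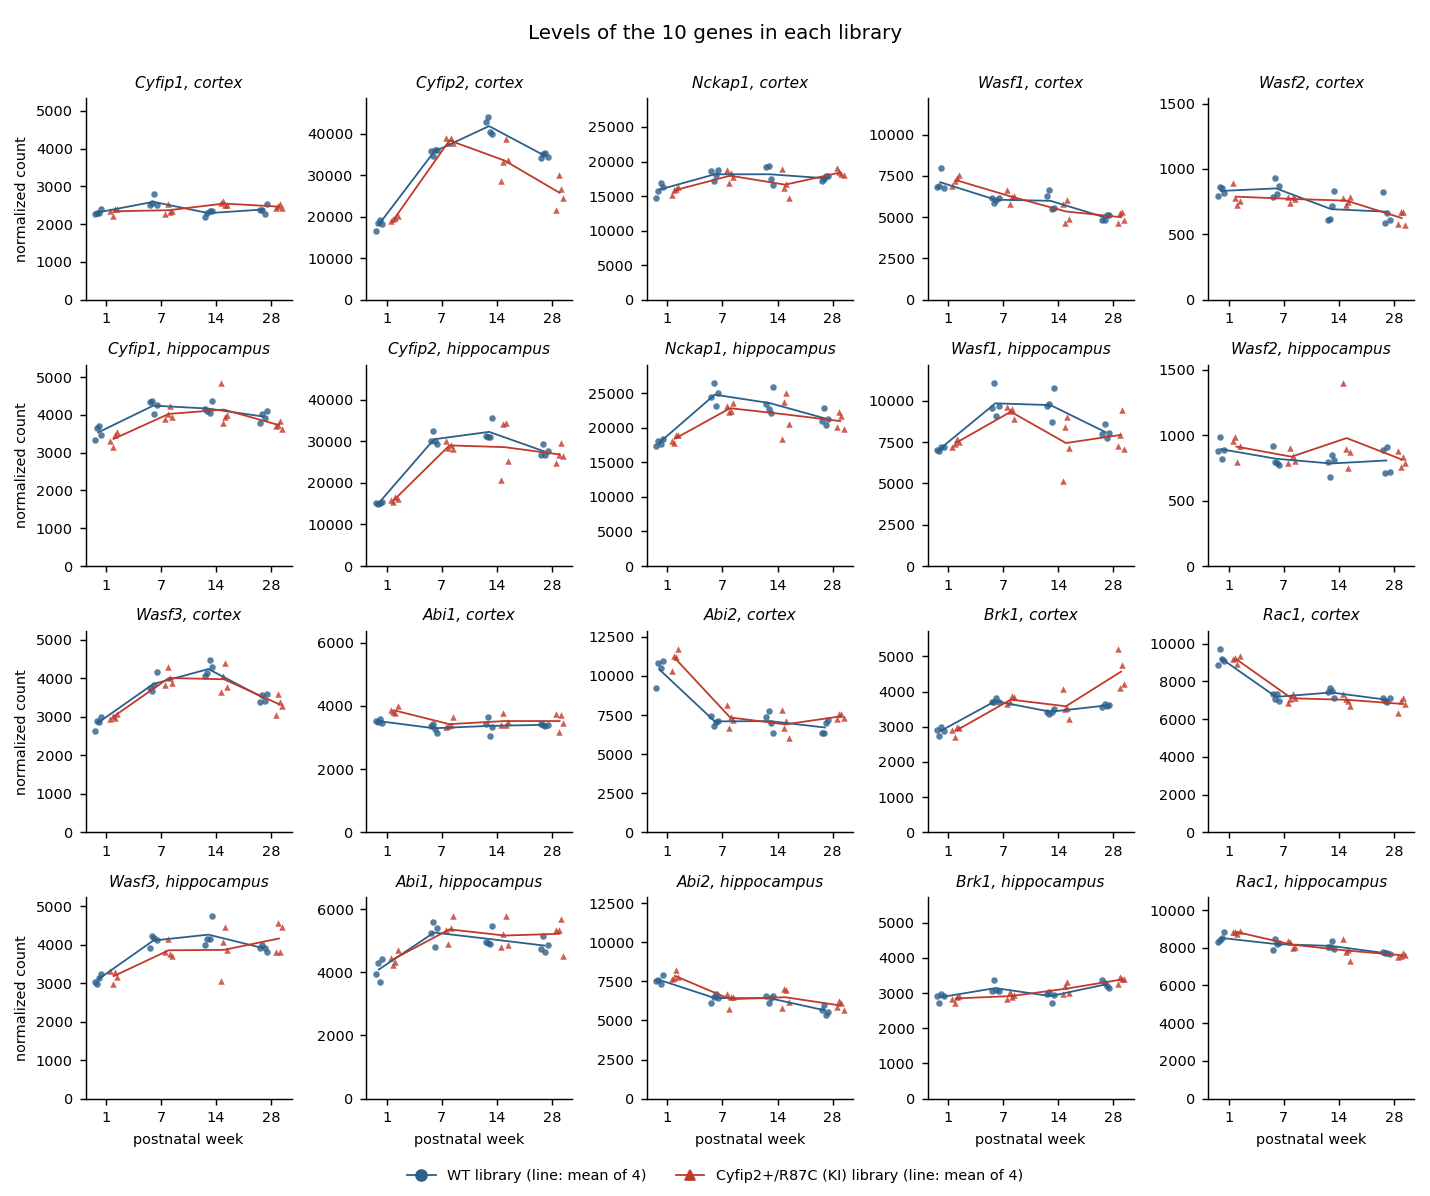
Normalized counts of each member in each of the 64 libraries, by region, age in postnatal weeks and genotype. Points are libraries and lines join the group means. Cyfip2 is lowest at PWK 1 in both regions, and KI cortex lies below WT at PWK 14 and 28.

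The KI and WT libraries were compared in each region at each age, to see whether the mutation in Cyfip2 goes with altered RNA levels of the complex. Of the 80 tests, 2 were called: Cyfip2 was lower and Brk1 higher in KI cortex at PWK 28. In cortex, 0.00546%, 0.00545%, 5.18% and 22.2% of all genes were called at PWK 1, 7, 14 and 28, and the 2 of 10 members called at PWK 28 are near that share. The shares in hippocampus were 0.0109%, 0.0218%, 15.6% and 15.8% at PWK 1, 7, 14 and 28, and no member was called by limma, with or without KI replicate 1 at PWK 14. At an unadjusted p under 0.05 there were 1, 3, 2 and 3 members in cortex and 0, 2, 1 and 0 in hippocampus, in order of age. In cortex the median absolute log2 difference of the members was 0.05, 0.05, 0.11 and 0.07 at PWK 1, 7, 14 and 28. Over all genes it was 0.08, 0.08, 0.14 and 0.22. In hippocampus it was 0.05, 0.07, 0.11 and 0.05 for the members and 0.07, 0.08, 0.21 and 0.16 over all genes. The median over all genes includes weakly expressed ones and was not matched for level.

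Groups of 4 KI and 4 WT libraries that did not overlap were counted as a second reading. In cortex they numbered 1 member at PWK 1, with 3.15% of all genes, 2 at PWK 7, with 4.62%, 2 at PWK 14, with 14.2%, and 4 at PWK 28, with 25.8%. In hippocampus they numbered 0 at PWK 1, with 3.26% of all genes, 1 at PWK 7, with 3.87%, 0 at PWK 14, with 23.8%, and 0 at PWK 28, with 21.5%. The members concerned were Abi1 at PWK 1, Cyfip2 and Wasf2 at PWK 7, Cyfip2 and Cyfip1 at PWK 14 and Cyfip2, Brk1, Abi2 and Nckap1 at PWK 28 in cortex, and Brk1 at PWK 7 in hippocampus.

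**Figure D3:**
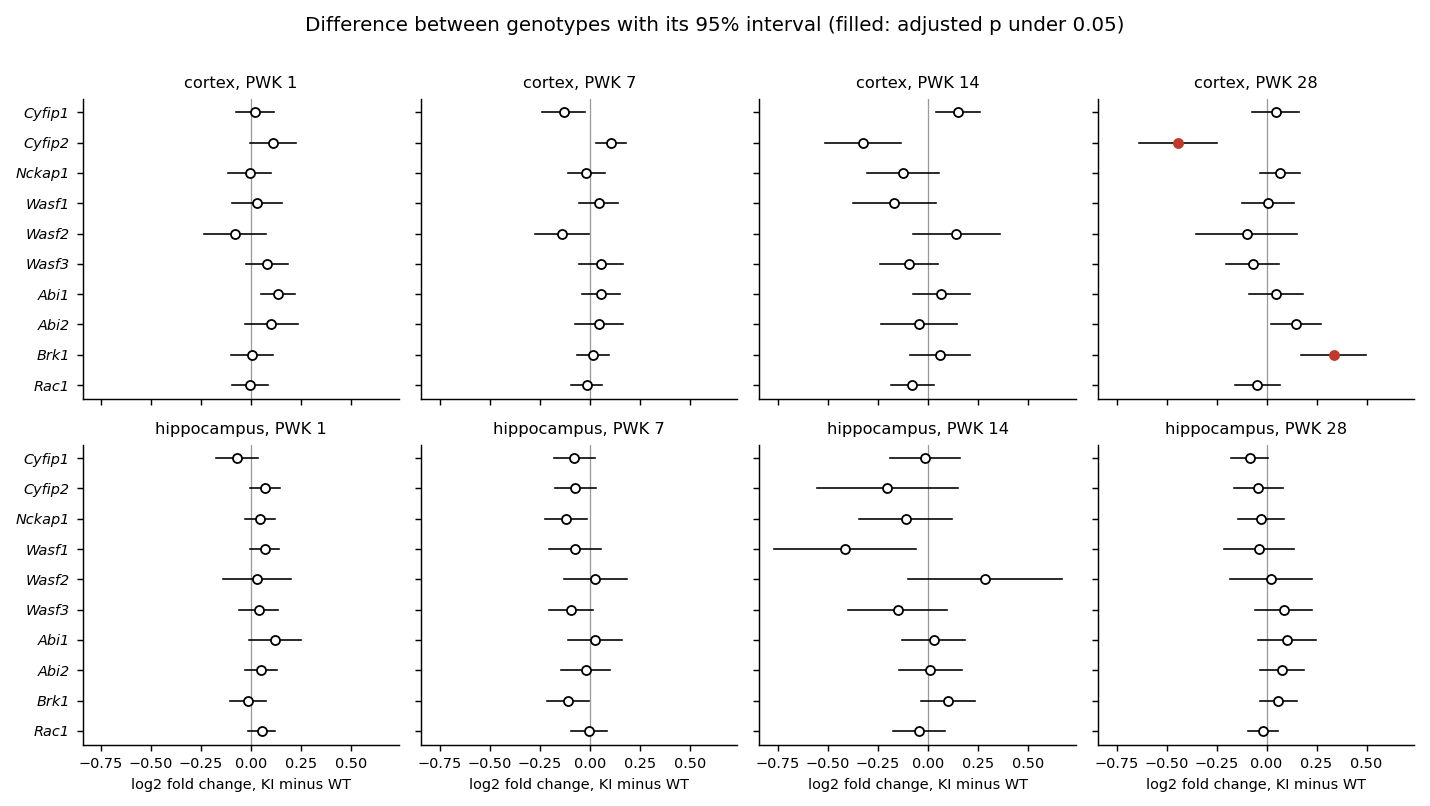
Log2 difference of KI against WT with its 95% interval for each member, by region and age in postnatal weeks, from limma on 4 KI and 4 WT libraries. Cyfip2 (-0.44) and Brk1 (0.34) in cortex at PWK 28 are the called differences, and the intervals of Rac1 stay within -0.19 to 0.12.

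Rac1 had the smallest maximum absolute difference between the genotypes among the members. Over the 8 comparisons its log2 difference ran from -0.08 to 0.05 and the widest limits of its 95% intervals were -0.19 and 0.12. In cortex at PWK 28 the KI libraries held 6350.4, 6979.6, 7139.9 and 6779 normalized counts of Rac1 and the WT libraries 7144, 6957, 6921 and 7109, which overlap. Rac1 transcripts overlap those of Daglb on the opposite strand over 2309 bases, so reads there depend on how strand was used in counting, and Daglb averaged 1202 normalized counts.

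Cyfip2, the mutated gene and the CYFIP that dominates in brain, was the member with the largest called difference. In cortex at PWK 28 the KI libraries held 21597, 30055, 26765 and 24490.4 normalized counts and the WT libraries 34022, 35187, 35279 and 34418. The highest KI library lay below the lowest WT library, and the KI libraries were spread more widely. The KI level was 0.736-fold that of WT, a difference of -0.44 on the log2 scale (SE 0.09, 95% interval -0.64 to -0.25, adjusted p = 0.0058) by limma with Benjamini-Hochberg adjustment. The call held in 8 of 8 fits that left out 1 library, with differences of -0.52 to -0.36. At PWK 14 the KI cortices held 28584, 33140.3, 38683 and 33633 and the WT cortices 42735, 44053, 40443 and 39966, again without overlap. That difference was -0.33 on the log2 scale (SE 0.09, 95% interval -0.52 to -0.14, adjusted p = 0.0539) in limma and so missed the call, but it was called without KI replicate 3, the highest KI library (-0.40, adjusted p = 0.0186), and in a fit of all 64 libraries (adjusted p = 0.00837).

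In the younger cortex the order of the genotypes was the other way or absent. At PWK 7 the KI cortices held 38912, 37662, 38975 and 37834 normalized counts of Cyfip2 and the WT cortices 35788, 34519, 36054 and 36129. All 4 KI libraries lay above all 4 WT libraries, and the log2 difference of 0.11 was not called (limma, adjusted p = 0.416). At PWK 1 the KI cortices ranged from 18833 to 20143 and the WT cortices from 16451 to 19303, with overlap. In hippocampus KI and WT libraries overlapped at all 4 ages. At PWK 28 the KI hippocampi held 24732, 26689.9, 29612 and 26419.5 and the WT hippocampi 26732, 29266, 26842 and 27601, a log2 difference of -0.04 (95% interval -0.16 to 0.08). At PWK 14 the KI hippocampi held 20608, 34100.2, 34409 and 25379.8 and the WT hippocampi 31256, 31064, 31149 and 35756, and KI replicates 1 and 4 were the low ones. The log2 difference of -0.20 became -0.06 without KI replicate 1, the library with high astrocyte and microglial markers.

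Cell markers moved between the same cortical groups at PWK 28. The 8 neuronal markers summed to 276113 to 298885 in KI and 230267 to 256155 in WT cortex without overlap, with 2 called higher and none lower. The 6 oligodendrocyte markers summed to 86355 to 111714 in KI and 103278 to 155944 in WT, with none called. The 6 astrocyte markers summed to 34559.7 to 43856 in KI and 33539.8 to 39464 in WT, with 1 called higher and 2 lower, and the 7 microglial markers to 8382 to 9489 and 8558 to 9934, with 1 called higher. The 2 neuronal markers called higher were Slc17a7, with a mean of 70649 in KI and 37780.5 in WT, and Gad2, with 12740 and 5626. The higher neuronal sum in these KI cortices thus lay largely in those 2 genes. At PWK 14 the neuronal sums overlapped, at 252612 to 297142 in KI and 252680.0 to 270144 in WT, and the 4 endothelial markers summed to 2408 to 2879 in KI and 3597 to 3833 in WT, with 2 called lower. The part of these markers in the Cyfip2 and Brk1 differences was not tested, and in bulk tissue fewer cells of a type and less RNA per cell cannot be told apart.

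Cyfip1, the CYFIP that is expressed more widely outside the brain, was not called in any genotype comparison fitted on its own 8 libraries. At PWK 14 the KI cortices held 2551, 2609.9, 2503 and 2509 normalized counts of Cyfip1 and the WT cortices 2181, 2282, 2346 and 2352, so all KI libraries lay above all WT libraries. The difference was 0.15 on the log2 scale (SE 0.05, 95% interval 0.04 to 0.26, adjusted p = 0.11) by limma, and in a fit of all 64 libraries it was called (adjusted p = 0.0324). At PWK 7 the KI cortices held 2273, 2535, 2314 and 2347 and the WT cortices 2500.3, 2555, 2789 and 2515, and only KI replicate 2 reached into the WT range. That difference was -0.13 (limma, adjusted p = 0.527). In hippocampus at PWK 14 KI replicate 1 held 4840.4 and the other KI libraries 3773 to 4003, against 4036 to 4373 in WT, and the log2 difference was -0.02 with and -0.09 without replicate 1. Cyfip1 transcripts overlap those of Nipa2 on the opposite strand over 1316 bases, and Nipa2 averaged 1260 normalized counts.

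Nckap1, the scaffold on which the CYFIP subunit sits, stayed within log2 differences of -0.13 to 0.07. In cortex at PWK 28 the KI libraries held 19048, 18431, 18132 and 18043 normalized counts and the WT libraries 17201, 17415, 17868 and 17832, without overlap but by 0.07 on the log2 scale (95% interval -0.03 to 0.17, limma adjusted p = 0.32). In hippocampus at PWK 7 the KI libraries held 23089.6, 22279.9, 22453 and 23548 and the WT libraries 24519, 26479, 23215 and 24981, which overlapped, with a difference of -0.12 on the log2 scale (SE 0.05, 95% interval -0.22 to -0.01, adjusted p = 0.763). The intervals of the other 7 comparisons held 0.

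Among the WAVE genes, Wasf1 had the largest difference that was not called. In hippocampus at PWK 14 the KI libraries held 5138, 8432, 9042 and 7169 normalized counts of Wasf1 and the WT libraries 9679, 9781, 8706 and 10801. KI replicate 1 was far below the others, and KI replicate 3 lay within the WT range. The difference was -0.42 on the log2 scale (SE 0.16, 95% interval -0.77 to -0.06, adjusted p = 0.106) by limma, and without KI replicate 1 it was -0.25 (adjusted p = 0.0964). In a fit of all 64 libraries, which share 1 estimate of the spread, Wasf1 and Wasf2 were both called in this comparison. Wasf2 in the same groups was at 1399, 893, 751 and 870.2 in KI and 799, 678, 847 and 814 in WT, so replicate 1 was the high one. Its log2 difference of 0.28 became 0.10 without that library. Wasf2 in cortex at PWK 7 was at 788, 743, 784 and 769.5 in KI and 789, 934, 812 and 870.5 in WT, where all KI libraries lay below all WT libraries (log2 difference -0.14, limma adjusted p = 0.599). Over the 8 comparisons Wasf2 ran from -0.14 to 0.28 and Wasf3, a WAVE gene with high expression in brain, from -0.15 to 0.09, and neither was called.

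Both ABI genes, which link WAVE to the complex, showed small differences. Abi1 was at or above the WT mean in KI in 8 of 8 comparisons, by 0.03 to 0.13 on the log2 scale, none of them called. In cortex at PWK 1 the KI libraries held 3885, 3793, 3766 and 3990.2 normalized counts of Abi1 and the WT libraries 3519, 3488, 3601 and 3469, without overlap (limma log2 difference 0.13, adjusted p = 0.908). In hippocampus at PWK 28 Abi1 was called higher in KI without KI replicate 4 (0.17, adjusted p = 0.0436). Abi2 in cortex at PWK 28 was at 7251, 7552, 7554 and 7281 in KI and 6319, 6355, 6965 and 7164 in WT. The KI libraries lay above the WT libraries, close to WT replicate 4, and the log2 difference of 0.15 was not called (limma, adjusted p = 0.0847), except after the GC content and length correction (adjusted p = 0.022).

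Brk1, the small subunit that binds the WAVE and ABI helices, was the only member called higher in KI. In cortex at PWK 28 the KI libraries held 5199, 4096, 4755 and 4218 normalized counts and the WT libraries 3552, 3649, 3589.6 and 3624. All KI libraries lay above all WT libraries, and the KI values were the more widely spread. The KI level was 1.26-fold that of WT, a difference of 0.34 on the log2 scale (SE 0.07, 95% interval 0.17 to 0.50, adjusted p = 0.0101) by limma, and the call held in 8 of 8 fits that left out 1 library. At PWK 14 the KI cortices held 4075, 3503, 3525 and 3227 and the WT cortices 3426, 3362, 3427 and 3494, where only KI replicate 1 was well above WT. In hippocampus at PWK 7 the direction was the other way, with 2822, 3022, 2878 and 2938 in KI and 3053, 3365, 3101 and 3048 in WT. That non-overlapping difference of -0.11 was not called (limma, adjusted p = 0.797).

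Whether the genotype differences changed with age was tested as an interaction in each region, and 4 of 60 tests were called, all in cortex. The Cyfip2 difference at PWK 14 minus that at PWK 7 was -0.43 on the log2 scale (SE 0.09, 95% interval -0.63 to -0.24, adjusted p = 0.0168) by limma. The Cyfip2 difference at PWK 28 minus that at PWK 7 was -0.55 on the log2 scale (SE 0.10, 95% interval -0.75 to -0.35, adjusted p = 0.000988). Both were called in 16 of 16 fits that left out 1 library. For Cyfip1 the difference at PWK 14 exceeded that at PWK 7 by 0.28 on the log2 scale (SE 0.07, 95% interval 0.14 to 0.42, adjusted p = 0.028). Without any 1 of 8 libraries the Cyfip1 call was lost, with adjusted p up to 0.0646: PWK 7 WT replicates 2 and 3, PWK 7 KI replicates 1, 3 and 4, PWK 14 WT replicates 1 and 2 and PWK 14 KI replicate 2. For Brk1 the difference at PWK 28 exceeded that at PWK 7 by 0.32 on the log2 scale (SE 0.08, 95% interval 0.15 to 0.49, adjusted p = 0.0137), called in 16 of 16 such fits. The PWK 7 libraries are shared by these tests. Over all genes 3.18% were called for PWK 14 against 7, 16.4% for PWK 28 against 7 and 0.0% for PWK 28 against 14 in cortex, and 10.3%, 7.76% and 0.0% in hippocampus. No member was called for PWK 28 against 14 in cortex, where 1 had an unadjusted p under 0.05. In hippocampus no member was called, and 1, 2 and 0 members had an unadjusted p under 0.05 for PWK 14 against 7, 28 against 7 and 28 against 14.

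The same was tested between the regions at each age, where 1 of 40 tests was called. The Cyfip2 difference at PWK 28 was higher in hippocampus than in cortex by 0.40 on the log2 scale (SE 0.11, 95% interval 0.17 to 0.63, adjusted p = 0.0444) by limma. This call held without cortical KI replicate 2 or hippocampal KI replicate 1 but was lost without each of the other 14 libraries, with adjusted p between 0.0525 and 0.0909 and differences of 0.32 to 0.43, and it was lost with no filter on low values (adjusted p = 0.0513). The Brk1 difference at PWK 28 in hippocampus minus that in cortex was -0.28 (adjusted p = 0.077) and among the fits that left out 1 library it was called only without cortical KI replicate 2 (-0.33, adjusted p = 0.0146). Over all genes 0.0%, 0.00543%, 2.85% and 4.57% were called at PWK 1, 7, 14 and 28. At the ages with no member called, 0 members at PWK 1, 3 at PWK 7 and 0 at PWK 14 had an unadjusted p under 0.05.

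The balance between paralogs was described as a ratio within each library, with no test. Per kb, Cyfip2 stood 7.57-fold, 13.3-fold, 17.6-fold and 14.1-fold above Cyfip1 in WT cortex at PWK 1, 7, 14 and 28. In KI cortex the same ratios were 8.06, 15.7, 12.7 and 10.03. The WT ratio was highest at PWK 14, whereas the KI ratio was highest at PWK 7. KI and WT libraries did not overlap in this ratio at PWK 7, 14 and 28, where KI cortex had the higher share of Cyfip2 at PWK 7 and of Cyfip1 at PWK 14 and 28. In hippocampus the ratio was 4.16, 6.95, 7.49 and 6.75 in WT and 4.597, 6.98, 6.57 and 6.96 in KI, with overlap of the genotypes at all 4 ages.

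Abi1 against Abi2 and Wasf3 against Wasf1 differed in balance between the regions. Per kb, the Abi1 level was 0.575, 0.787, 0.804 and 0.861 times the Abi2 level in WT cortex at PWK 1, 7, 14 and 28, and 0.911, 1.38, 1.33 and 1.45 times in WT hippocampus. Abi2 thus led in cortex at each age and Abi1 led in hippocampus from PWK 7, on the longest-transcript scale. Divided by the length of all exons, Abi1 led in WT cortex at PWK 14 and 28 and in WT hippocampus at PWK 1, 7, 14 and 28. KI and WT overlapped in this ratio in all 8 comparisons. The Wasf3 to Wasf1 ratio per kb was 0.210, 0.333, 0.372 and 0.367 in WT cortex at the same ages and 0.228, 0.219, 0.229 and 0.253 in WT hippocampus. In hippocampus at PWK 14, each of the 4 KI libraries lay above all WT libraries in this ratio, with a mean of 0.275 against 0.229, and KI replicate 1 was the highest of them. The Wasf2 to Wasf1 ratio per kb was lower in KI than in WT cortex at PWK 7, at 0.060 against 0.068, without overlap. In hippocampus at PWK 14 it was 0.063 in KI and 0.039 in WT, with overlap, and KI replicate 1 was highest. How often ratios of other genes fail to overlap was not counted.

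**Figure D4:**
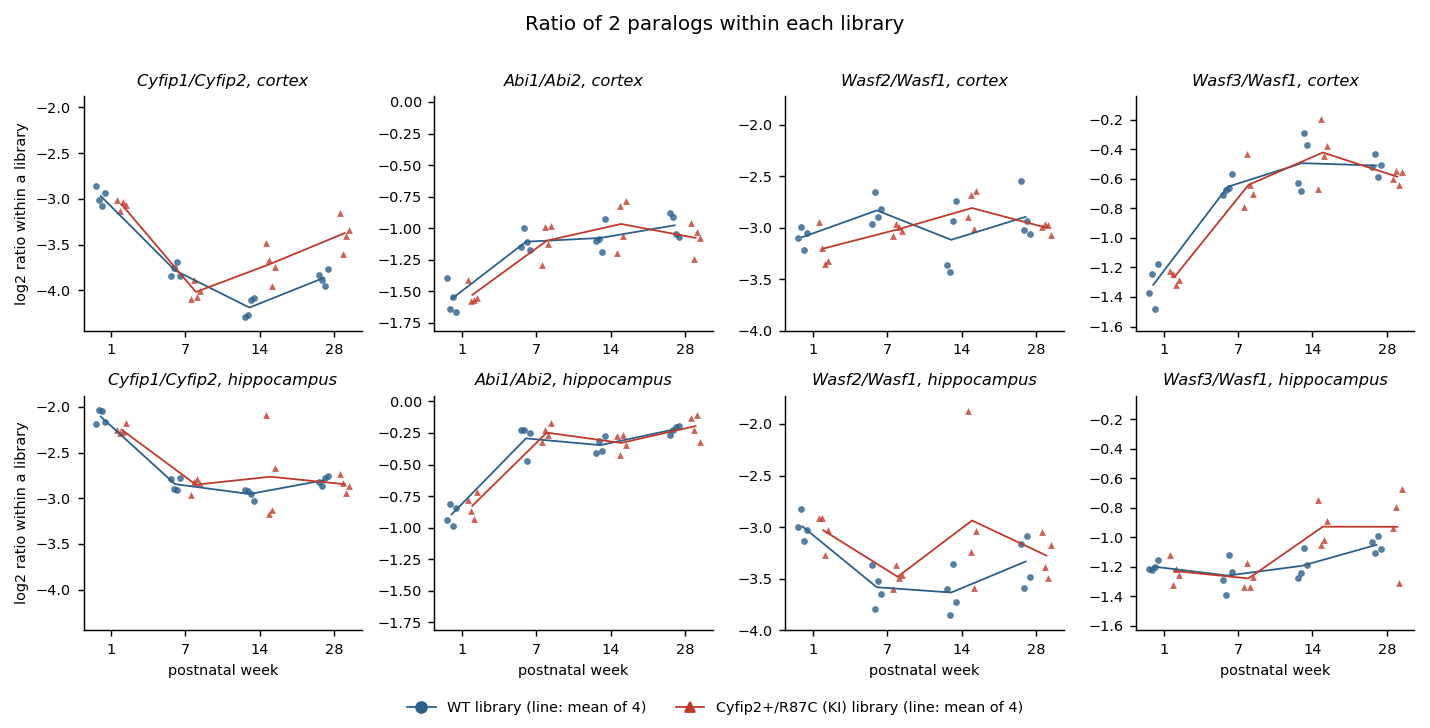
Log2 ratio of normalized counts of paralogs within each library (Cyfip1/Cyfip2, Wasf2/Wasf1, Wasf3/Wasf1 and Abi1/Abi2), by region, age in postnatal weeks and genotype. Points are libraries and lines join the group means. The counts are not divided by length, so the plot compares groups and not genes. The Cyfip1/Cyfip2 ratio of KI cortex lies above WT at PWK 14 and 28 and below WT at PWK 7.

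The age series in WT mice gave the course that the genotype differences stand against. Of 60 tests between neighbouring ages, 23 were called, 16 of them between PWK 1 and 7. In cortex 8 of 10 members were called from PWK 1 to 7, with 65.3% of all genes. Cyfip2 rose 1.97-fold, from 18112 ± 1196 to 35623 ± 750.1 normalized counts (log2 difference 0.98, SE 0.05, limma adjusted p = 1.04e-08). Wasf3, Brk1, Nckap1 and Cyfip1 rose by 0.44, 0.38, 0.19 and 0.16 on the log2 scale, while Abi2, Rac1 and Wasf1 changed by -0.55, -0.36 and -0.23. Abi1 missed the call at -0.10 (adjusted p = 0.0527) and passed it without PWK 7 replicate 2 (-0.11, adjusted p = 0.0418) and under 4 of 9 other settings, and Wasf2 was at 0.03. The genes of the complex thus moved in both directions over these weeks. The cortical libraries of Abi2 held 9248, 10852, 10522 and 10973 at PWK 1 and 7449, 6798, 7034 and 7089 at PWK 7, and those of Rac1 8895, 9700.1, 9205 and 9105 and 7352, 7082, 7324 and 6969, without overlap in either gene.

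In hippocampus 8 of 10 members were also called from PWK 1 to 7, with 61.3% of all genes. Cyfip2 rose 2.01-fold, from 15206 ± 254 to 30519.9 ± 1418 (log2 difference 1.00, SE 0.04, limma adjusted p = 3.08e-09). Wasf1 and Nckap1 both rose by 0.47, Wasf3 by 0.41, Abi1 by 0.36 and Cyfip1 by 0.26 on the log2 scale. The Nckap1 libraries held 17367, 18061, 17721 and 18392 at PWK 1 and 24519, 26479, 23215 and 24981 at PWK 7, without overlap. Abi2 was the member called lower, at -0.24. Wasf1 thus fell in cortex and rose in hippocampus over the same weeks, although the difference between these courses was not tested. Brk1 was called at 0.12 (adjusted p = 0.0356), and the call was lost without PWK 1 replicate 1, 2 or 4 or PWK 7 replicate 2, with adjusted p up to 0.1. It was also lost with total-sum scaling, sample weights and the GC content and length correction, with differences down to 0.07 and adjusted p up to 0.175. Rac1 was at -0.06 and not called. Wasf2 was at -0.12 and was called without PWK 7 replicate 1 (-0.18, adjusted p = 0.0447).

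After PWK 7 fewer members changed. Between PWK 7 and 14 in cortex Cyfip2 was the member called, at 0.23 on the log2 scale (SE 0.05, 95% interval 0.13 to 0.33, adjusted p = 0.0134) by limma, with 5.32% of all genes called. In a fit of all 64 libraries it was not called (adjusted p = 0.139). Wasf2 was called lower there without PWK 14 replicate 4 (-0.40, adjusted p = 0.0165), with sample weights and after the GC content and length correction, but not as fitted (-0.31 (adjusted p = 0.0907)). Cyfip1 was at -0.18 between these ages and not called as fitted (limma, adjusted p = 0.0608). It was called lower in the fit of all 64 libraries, with total-sum scaling and with sample weights. In hippocampus no member was called over that interval, with 1.99% of all genes called, and 0 had an unadjusted p under 0.05 in limma. Between PWK 14 and 28 in cortex, with 12.0% of all genes called, Wasf3 was called lower at -0.28 (adjusted p = 0.00366), Cyfip2 at -0.27 (adjusted p = 0.00504) and Wasf1 at -0.26 (adjusted p = 0.0204), all by limma on the log2 scale. The Wasf1 call was lost without PWK 14 replicate 1 (adjusted p = 0.06). WT Cyfip2 in cortex thus peaked at PWK 14, with 41799 ± 1928, and KI Cyfip2 at PWK 7, with 38346 ± 694 normalized counts.

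In hippocampus from PWK 14 to 28, with 8.11% of all genes called, Wasf1 at -0.26 (adjusted p = 0.0269), Cyfip2 at -0.22 (adjusted p = 0.0309) and Abi2 at -0.19 (adjusted p = 0.0306) were called lower by limma on the log2 scale. These calls lay near the threshold. In the fits without 1 library that lost them, the differences were -0.26 to -0.24 for Wasf1, -0.24 to -0.21 for Cyfip2 and -0.19 to -0.16 for Abi2. Leaving out PWK 14 replicate 1 or PWK 28 replicate 1, 3 or 4 ended each of the 3 calls, as did PWK 14 replicate 2 for Wasf1 and PWK 14 replicate 4 for Abi2, with adjusted p up to 0.0955. In a fit of all 64 libraries none of the 3 was called (adjusted p up to 0.105), and Brk1, at 0.16 (adjusted p = 0.0603) as fitted here, was called instead. Cell markers moved with age as well: the oligodendrocyte markers summed to 5347 to 13786 in WT cortex and 3541 to 8121 in WT hippocampus at PWK 1, and to 143990.0 to 183063 and 149988 to 195095 at PWK 7. The neuronal markers summed to 188802 to 216711 in WT cortex and 163228 to 177649 in WT hippocampus at PWK 1, and to 244693 to 256286 and 195427 to 204681 at PWK 7. The part of these shifts in the members' changes was not tested.

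Cyfip1 showed the largest difference between the regions among the members at each age in WT mice. In cortex at PWK 1 the WT libraries held 2274, 2286, 2281 and 2399 normalized counts of Cyfip1 and in hippocampus 3332, 3652, 3696 and 3458, without overlap. The hippocampal level was 1.53-fold, 1.64-fold, 1.82-fold and 1.66-fold that of cortex at PWK 1, 7, 14 and 28. The log2 differences were 0.61 (adjusted p = 1.88e-06), 0.71 (adjusted p = 3.32e-07), 0.86 (adjusted p = 6.15e-08) and 0.73 (adjusted p = 1.39e-07), all by limma. Cyfip2 went the other way: at PWK 14 the WT cortices ranged from 39966 to 44053 and the WT hippocampi from 31064 to 35756. It was lower in hippocampus at each age, with differences of -0.25, -0.22, -0.37 and -0.33 on the log2 scale, each called. The CYFIP genes therefore differed between the regions in opposite directions at each age.

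Over the members 30 of 40 regional tests were called: 6, 8, 7 and 9 at PWK 1, 7, 14 and 28, where 34.7%, 40.8%, 34.6% and 37.8% of all genes were called. Wasf1 did not differ detectably at PWK 1 (log2 difference 0.00, 95% interval -0.11 to 0.12) and was higher in hippocampus by 0.70 at PWK 7, 14 and 28. At PWK 7 the cortical libraries held 6142, 5873, 6043 and 6161 normalized counts of Wasf1 and the hippocampal ones 9545, 11075, 9077 and 9697. All hippocampal libraries lay above all cortical ones. Abi1 was higher in hippocampus by 0.21, 0.67, 0.59 and 0.51, and Nckap1 by 0.17, 0.45, 0.38 and 0.28, each called. For Abi1 at PWK 7 the cortical libraries held 3352, 3413, 3254 and 3154 and the hippocampal ones 5240.4, 5586, 4806 and 5393, again apart. Brk1 was lower in hippocampus from PWK 7 on, with differences of -0.25, -0.23 and -0.15, and did not differ detectably at PWK 1 (95% interval -0.10 to 0.10).

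Abi2, Rac1, Wasf3 and Wasf2 gave regional calls that depended on age, on the setting or on the libraries included. Abi2 was lower in hippocampus at PWK 1 (-0.45) and PWK 28 (-0.25). At PWK 7 it was at -0.14 (adjusted p = 0.0165), lost without replicate 1 of cortex or of hippocampus (adjusted p up to 0.0555), with total-sum scaling and in a fit of all 64 libraries (adjusted p up to 0.0748). At PWK 14 Abi2 was at -0.14 (adjusted p = 0.0951) and was called without cortical replicate 4 (-0.20, adjusted p = 0.0129), with sample weights and after the GC content and length correction. Rac1 was higher in hippocampus at PWK 7 (0.19) and PWK 28 (0.13), whereas at PWK 1 it was lower at -0.11 (adjusted p = 0.0449), a call that total-sum scaling, protein-coding scaling and a GC and length correction ended, as did leaving out cortical replicate 2, 3 or 4 or hippocampal replicate 1, 2 or 3 (adjusted p up to 0.126). At PWK 14 Rac1 was called at 0.13 (adjusted p = 0.0369), lost without cortical replicate 1, 3 or 4 or hippocampal replicate 1, 2 or 3 (adjusted p up to 0.0932). Wasf3 was called higher in hippocampus at PWK 28, at 0.16 (adjusted p = 0.00514), a call lost in a fit of all 64 libraries (adjusted p = 0.0562). At PWK 1 it was at 0.12 (adjusted p = 0.0734) and was called with the replicate number as a block (adjusted p = 0.0442), with total-sum or protein-coding scaling and after the GC content and length correction. At PWK 7 it was called without cortical replicate 4 (adjusted p = 0.0344). Wasf2 was not called at any age as fitted, but was called at PWK 14 without cortical replicate 4 (0.28, adjusted p = 0.0391) and at PWK 28 without cortical replicate 1 (0.37, adjusted p = 0.0144) or with the block, all by limma.

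**Figure D5:**
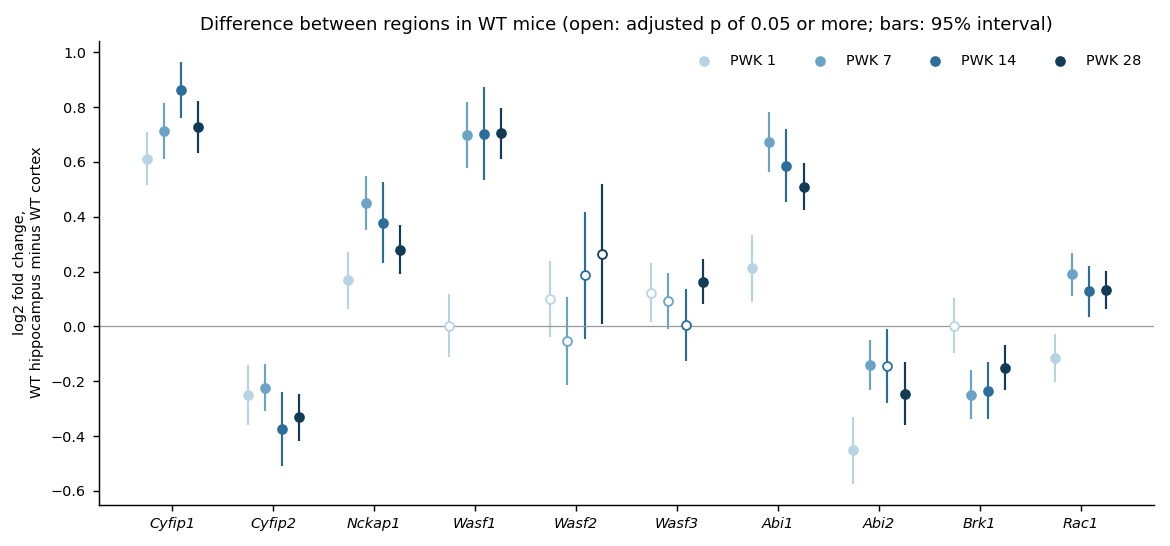
Log2 difference of hippocampus against cortex in WT mice with its 95% interval for each member at each age in postnatal weeks, from limma on 4 libraries per region. Cyfip1 lies above 0 and Cyfip2 below 0 at all 4 ages, and Wasf1 moves from near 0 at PWK 1 to 0.70 at the later ages.

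Marker sums differed between these regions too. At PWK 7 the neuronal markers summed to 195427 to 204681 in WT hippocampus and 244693 to 256286 in WT cortex, and the astrocyte markers to 42429 to 43463 and 35613 to 38707. Choroid plexus markers summed to 1364 to 95036 in WT hippocampus and 177 to 1088 in WT cortex at that age. The part of these differences in the regional levels of the members was not tested.

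The wider pathway was read from 87 genes in 8 lists of Rac regulators, effectors and WAVE partners. Between KI and WT no gene of these lists was called at PWK 1 or 7 by limma, where 4 and 10 in cortex and 4 and 6 in hippocampus had an unadjusted p under 0.05. In cortex 6 were called at PWK 14, all lower (6.9% of the 87), and 17 at PWK 28, 8 higher and 9 lower (19.5%). In hippocampus 15 were called at PWK 14, 6 higher and 9 lower (17.2%), and 23 at PWK 28, 15 higher and 8 lower (26.4%). These shares stand beside 5.18%, 22.2%, 15.6% and 15.8% over all genes. Without KI replicate 1 of hippocampus at PWK 14, 18 of the 87 were called there (20.7%), beside 17.4% of all genes. The Arp2/3 complex, which WAVE activates as a protein, was read from 10 genes. They gave 0 calls in cortex at PWK 14 and 28. In hippocampus they gave 1 lower at PWK 14, with or without KI replicate 1, and 1 higher at PWK 28. The 4 translation partners of CYFIP gave 1 call, lower in hippocampus at PWK 14, and none there without KI replicate 1.

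Guanine nucleotide exchange factors, which load Rac with GTP, were the longest list and held more called genes than any other, in both directions. Of 25 exchange factors, 3 fell in cortex at PWK 14, 3 rose and 4 fell in cortex at PWK 28, 3 rose and 2 fell in hippocampus at PWK 14 and 5 rose and 3 fell in hippocampus at PWK 28. Without KI replicate 1 the PWK 14 count turned to 2 higher and 4 lower. Prex1, an exchange factor driven by phosphoinositides and G proteins, rose in cortex at PWK 28 from 5254 ± 394 in WT to 8358 ± 608 in KI (log2 difference 0.67, limma adjusted p = 0.000292). It also rose in hippocampus by 0.99 at PWK 14 (0.83 without KI replicate 1) and 0.63 at PWK 28. Rasgrf1, a calcium-responsive factor for Ras and Rac, was lower in KI cortex at PWK 28, with 6253 ± 1332 against 11472 ± 668 (-0.90), and in hippocampus at PWK 14 (-0.58) and 28 (-0.41). Farp1, an exchange factor of dendrites and synapses, was lower in KI cortex at PWK 14 (-0.52) and 28 (-0.71). Elmo1, the partner of DOCK exchange factors, was lower in KI cortex at PWK 14 (-0.29) and 28 (-0.39) but higher in KI hippocampus at PWK 28 (0.21).

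The Rac-inactivating genes and the effectors were also mixed. Of 17 GTPase-activating proteins and RhoGDIs, 1 fell in cortex at PWK 14, 2 rose and 3 fell in cortex at PWK 28, 2 rose and 1 fell in hippocampus at PWK 14 (3 and 1 without KI replicate 1) and 4 rose and 2 fell in hippocampus at PWK 28. Arhgdib, the RhoGDI best known from blood cells and microglia, rose in KI hippocampus by 1.40 at PWK 14 (1.11 without KI replicate 1) and 1.07 at PWK 28. Microglial markers were higher in the same PWK 28 groups, at 10577 to 11659 in KI and 8456 to 9519 in WT, with 4 of 7 called higher, and their part in this was not tested. Racgap1, which acts on Rac during cell division, rose in cortex at PWK 28 (0.83) and in hippocampus at PWK 14 (1.502, or 1.18 without KI replicate 1) and 28 (0.72). Arhgap39 was lower (-0.27 in cortex and -0.28 in hippocampus) and Abr higher (0.20 in both regions) at PWK 28.

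Among the 9 effectors, Limk1 and Limk2, the kinases that inactivate the actin-severing protein cofilin, moved in opposite directions. Limk1 rose by 0.48 in cortex and 0.28 in hippocampus at PWK 28, and Limk2 was lower in cortex at PWK 28 (-0.23) and in hippocampus at PWK 14 (-0.27) and 28 (-0.24). Of the 10 genes for proteins that bind the WAVE complex, Pcdh19, a cell-adhesion protein, was lower in KI hippocampus at PWK 14 (-0.76) and 28 (-0.30). Nhsl2, of the NHS family, was lower in KI cortex at PWK 28 (-0.61, with overlap of the libraries) and in KI hippocampus at PWK 14 (-0.46) and 28 (-0.29). Rac3, a Rac1 paralog of neurons, was at 377 ± 41.2 in KI and 284 ± 17.1 in WT cortex at PWK 28 (0.40) and was lower in KI hippocampus at PWK 14 (-0.56). Of the 7 WAVE paralogs and related nucleation-promoting factors, 1 was called, higher in hippocampus at PWK 28. Rasgrf1, Limk2, Pcdh19, Nhsl2 and Rac3 were also still called at PWK 14 in hippocampus without KI replicate 1, at -0.53, -0.31, -0.72, -0.42 and -0.63.

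The pathway genes were also read along age and between regions in WT mice. From PWK 1 to 7, 75 of the 87 genes were called in cortex (86.2%) and 69 in hippocampus (79.3%), beside 65.3% and 61.3% over all genes. The later steps called 9 and 17 of them in cortex and 0 and 8 in hippocampus, where the step with none had 12 at an unadjusted p under 0.05 in limma. In cortex 9 of the 10 WAVE-binding partners fell and 1 rose over this interval, with a median log2 difference of -0.89, and 7 of the 10 Arp2/3 genes fell and 1 rose, with a median of -0.44. Between hippocampus and cortex 45, 55, 54 and 56 of the 87 genes were called at PWK 1, 7, 14 and 28 (51.7%, 63.2%, 62.1% and 64.4%), beside 34.7%, 40.8%, 34.6% and 37.8% of all genes. They went mostly lower in hippocampus at PWK 1, with 13 higher and 32 lower, and 33, 32 and 30 were higher and 22, 22 and 26 lower at the later ages. Of the 10 Arp2/3 genes 0 were higher and 1 lower in hippocampus at PWK 1, and 8, 8 and 7 were higher and none lower at PWK 7, 14 and 28, with median log2 differences of 0.27, 0.30 and 0.27.

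The genes most like Cyfip2 and Cyfip1 over the 16 group means were sought among 12819 genes with a mean of at least 100 normalized counts, as a description. D17Wsu92e (Pearson r = 0.988), Fmn1, a formin that extends actin filaments (0.981), and Coa5, an assembly factor of cytochrome oxidase (0.980), were closest to Cyfip2. Prdm16, a transcription regulator (0.988), Nr3c2, the mineralocorticoid receptor (0.988), and Gria1, an AMPA receptor subunit (0.987), were closest to Cyfip1. Among the members, Cyfip1 was closest to Abi1 (r = 0.947) and Nckap1 (0.878), and Cyfip2 to Wasf3 (0.823), while r between Cyfip1 and Cyfip2 was -0.131 and that between Brk1 and Rac1 was -0.895. The 16 means share animals between the regions and 1 joint scaling of the libraries.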

How the data were processed

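RNA of frontal cortex and hippocampus was sequenced in 64 stranded libraries, made with an mRNA kit per the labels and with a total RNA kit per the study's methods. Per the labels and the study's methods, the authors quantified transcripts with Salmon on GRCm38 and used DESeq2. The methods also name tximport for the import. That all libraries were scaled together is read from the values and is not stated in the study's methods. The submitters' processing notes name Salmon 0.11.2, DESeq2 1.19.11 and R 3.6.0, and the study's methods name other versions of each. The deposited table holds this normalized signal, an estimated count per gene that is no longer a raw count, for 18432 genes. Depth is unknown, because whole reads could not be recovered: between 21.6% and 41.9% of a library's low values came within 0.1 of a whole read (20% by chance). Precision was read off the spread between the 4 replicates.

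The plan allowed for raw counts, and since the values are normalized its fallback was used: limma-trend (limma 3.58.1, R 4.3.3) on log2(value + 1), a scale that understates the change of weakly expressed genes. Genes with a mean of at least 1 in the libraries compared were fitted, with calls at a Benjamini-Hochberg adjusted p below 0.05 over all genes of a comparison. KI and WT libraries were compared within age and region, WT libraries between neighbouring ages and between regions, and interactions in the 16 libraries involved. Groups came from the sample labels. The fits were tested on simulated data. GENCODE annotation of GRCm38 matched 18420 gene IDs and left 12 unmatched. Levels of different genes were compared per kb of the longest coding transcript, and count ratios of paralogs were compared between groups only, and sequences came from the GRCm38 reference. Transcript overlaps were sought with blastn 2.17.0 (at least 95% identity over 200 bases).

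The alternatives were total-sum and protein-coding scaling, a pseudocount of 8, a filter at a mean of 10 or none, all 64 libraries in 1 fit, sample weights, a GC and length correction, the replicate number as a block and leaving out each library. Equal replicate numbers pair the WT regions at PWK 1, where all 4 pairs deviated together (r 0.10 to 0.26), and the KI regions at PWK 28 (4 of 4 pairs, r 0.24 to 0.44). In KI at PWK 1 each hippocampal library was also most like the cortical library of its number (4 of 4, r 0.09 to 0.32). The KI regions at PWK 7 (r -0.01 to 0.16) and PWK 14 (r -0.03 to 0.46) gave 3 of 4 such matches, so pairing there stays unsettled. Equal numbers did not pair the WT regions at PWK 7, 14 or 28, or the libraries of different genotypes or ages. With the block, the Cyfip2 interaction of genotype and region at PWK 28 stayed called. That block also paired the WT regions at PWK 28, where the values showed no pairing (r -0.07 to 0.05), so it does not secure the call. The reported fits took the libraries of both regions as independent. The pairing by replicate number comes from these values and not from the labels.

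The members and lists were chosen with earlier results of these data known. The text names all 10 members, pathway genes called in at least 2 of the 8 genotype comparisons (up to 4 per list, by smallest adjusted p), and the 3 genes most like Cyfip2 and like Cyfip1. Cell markers are given as sums, with Slc17a7, Gad2 and Gfap also named.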

Additional observations from a re-analysis of the deposited data

Results flagged for a closer look

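Among the 160 groups of 4 libraries formed by the 10 members, 7 held a library far from the other 3 by Dixon's criterion (gap over range above 0.829), where chance gives about 8. They were Cyfip1 in WT cortex at PWK 1 (replicate 4 at 2399, the others 2274 to 2286), Wasf1 in WT cortex at PWK 1 (replicate 3 at 7960.1, the others 6785 to 6862) and Brk1 in WT cortex at PWK 7 (replicate 3 at 3805, the others 3705 to 3706). In hippocampus they were Cyfip2 in WT at PWK 14 (replicate 4 at 35756, the others 31064 to 31256), Abi1 in WT at PWK 14 (replicate 4 at 5449, the others 4904 to 4951), Abi2 in KI at PWK 1 (replicate 3 at 8218, the others 7671 to 7760) and Brk1 in WT at PWK 7 (replicate 2 at 3365, the others 3048 to 3101). WT replicate 4 of hippocampus at PWK 14 was the library that stood high for both Cyfip2 and Abi1.

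The genotype difference itself changed between ages or regions in 5 interaction tests by limma with Benjamini-Hochberg adjustment. In cortex, the Cyfip2 difference at PWK 14 minus that at PWK 7 was -0.43 and at PWK 28 minus PWK 7 it was -0.55. In cortex, the Cyfip1 difference at PWK 14 minus that at PWK 7 was 0.28, and the Brk1 difference at PWK 28 minus that at PWK 7 was 0.32. The Cyfip2 difference in hippocampus minus that in cortex at PWK 28 was 0.40, which most fits without 1 library did not call.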

How the results depend on the processing

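None of the 92 member differences with an unadjusted p under 0.05 in limma changed direction. The other member differences were not checked for direction. Of 252 counts of called members under the other settings, 237 stayed within 1.5 times the reported count. Among the counts that left out 1 library, 274 stayed within it and 30 moved. A count could stay while the gene changed. For WT PWK 14 against 7 in cortex, the fit of all 64 libraries lost Cyfip2 and called Cyfip1. The counts of called members that moved did so as follows. With all 64 libraries in 1 fit, KI against WT in cortex at PWK 14 gave 2 in place of 0, KI against WT in hippocampus at PWK 14 2 in place of 0, WT PWK 28 against 14 in hippocampus 1 in place of 3 (Brk1, with all 3 reported calls lost), the KI effect at PWK 28 minus PWK 14 in cortex 1 in place of 0, that at PWK 14 minus PWK 7 in hippocampus 1 in place of 0, and that in hippocampus minus cortex at PWK 28 2 in place of 1. With sample weights, KI against WT in cortex at PWK 14 gave 1, WT PWK 14 against 7 in cortex 3 in place of 1, the KI effect at PWK 28 minus PWK 14 in cortex 1, and that in hippocampus minus cortex at PWK 28 2. WT PWK 14 against 7 in cortex gave 2 with total-sum scaling and 2 with the GC and length correction, and the KI effect in hippocampus minus cortex at PWK 28 gave 2 with that correction and 0 with no filter. Leaving out 1 library, the counts ran from 0 to 1 for KI against WT in cortex at PWK 14 and in hippocampus at PWK 28, from 1 to 3 for the KI effect at PWK 14 minus PWK 7 in cortex, from 0 to 2 for that in hippocampus minus cortex at PWK 28, from 1 to 2 for WT PWK 14 against 7 in cortex and from 0 to 3 for WT PWK 28 against 14 in hippocampus. The cause of these moves was not tested.

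Where equal replicate numbers do not pair the libraries, the replicate block changed 5 calls: it ended Wasf1 in WT cortex from PWK 14 to 28 (adjusted p = 0.0657), Brk1 in WT hippocampus from PWK 1 to 7 (0.0843) and Cyfip2 (0.0573) and Abi2 (0.0753) in WT hippocampus from PWK 14 to 28, which left 1 called member there, and it added Wasf2 between the WT regions at PWK 28 (0.0192). At PWK 1, where they do, it added Wasf3. It changed no other member's call.

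Over all genes the number called was more dependent on the fit: KI against WT gave 711 to 1952 genes in cortex at PWK 14 (951 as reported), 3513 to 6114 in cortex at PWK 28 (4081) and 1788 to 6050.0 in hippocampus at PWK 14 (2870.0), and the KI effect at PWK 28 minus PWK 14 gave 0 to 914 in cortex and 0 to 470.0 in hippocampus (0 in each). That in hippocampus minus cortex at PWK 14 gave 514 to 2000.0 (525). With depth unknown and 4 libraries per group, differences smaller than the printed intervals cannot be seen.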
